A study of Mus musculus with 6 samples.

Results

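Hox genes encode homeodomain transcription factors, and the mouse carries 39 of them. They were taken from the deposited table by symbol, as every gene called Hox with a cluster letter from a to d and a paralogue number, which picked 39 of the 34745 genes listed. They lie in 4 clusters, here given on build GRCm38. The Hoxa cluster holds 11 genes at chr6:52155590-52260880, the Hoxb cluster 10 genes at chr11:96194316-96368256, the Hoxc cluster 9 genes at chr15:102921103-103036852 and the Hoxd cluster 9 genes at chr2:74668310-74765142. Prostate RNA of 3 C57BL/6 male mice that had carried a testosterone and oestradiol pellet under the skin (T + E2 group) was compared with that of 3 untreated males of this strain (CON group), each collected 12 weeks after the start. The strain carries no transgene, the mice were young adults at the start, and the pellet was renewed each month. The CON mice had their skin cut and stapled but received no empty pellet, so the hormones and the pellet itself cannot be told apart. The comparison addresses how the hormone pair that enlarges the mouse prostate changes its gene expression.

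Within each cluster the genes stand in the order in which they act along the body axis, the low paralogue numbers anteriorly and the high numbers posteriorly, and genes of 1 number in different clusters are ancient copies of each other. The posterior genes pattern the urogenital tract in the embryo, Hoxd13, Hoxa13 and Hoxb13 among them in the prostate, while Hoxa9, Hoxa10 and Hoxa11 mark successive stretches of the reproductive ducts. Much of the embryonic code stays on in adult tissue, where it records the position from which the cells came. The sum of 23 genes in paralogue groups 1 to 8, 7 in groups 9 to 10 and 9 in groups 11 to 13 makes up the 39.

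Libraries held 14816146 to 16555549 reads counted on genes, of which the Hox genes took few. Levels that compare mice are given as CPM, read counts relative to the library total scaled by the TMM factors of edgeR, and levels that compare genes as FPKM, the deposited unit that also divides by gene length. A limit of 3 counts per mouse corresponded to 0.183 to 0.208 CPM, which covers counting error only. Prostate secretory genes marked the tissue in each group, Pbsn (probasin) at 12360 to 16650 CPM in CON mice and at 1259 to 1754 CPM in T + E2 mice. Libraries differed in a tissue beside the prostate. The 7 seminal vesicle markers summed to 3.84, 10290 and 0.629 CPM in CON mice 1 to 3 and to 3.81, 642.7 and 1.67 CPM in T + E2 mice 1 to 3. The second CON mouse thus stood apart, also in 3 fat markers with a sum of 268.9 CPM against 52.0 and 67.6 CPM in the other CON mice. The second T + E2 mouse stood apart from its group in the seminal vesicle markers, though far less. Results in which either mouse was decisive are given with and without it.

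Which Hox genes did the adult prostate express? Hoxb13, the posterior gene that also supports secretory differentiation of prostate epithelium, led in each mouse. Its FPKM was 218, 212.4 and 204.4 in CON mice 1 to 3 and 184.1, 175.1 and 198.3 in T + E2 mice 1 to 3. This single gene held 73.2% ± 1.94 (SD, n = 3) of the summed FPKM of the 39 genes in the CON group and 74.2% ± 0.557 (SD, n = 3) in the T + E2 group. The next genes in the CON group were Hoxb9 at 13.4 ± 0.679 FPKM (SD, n = 3), Hoxd13 at 10.2 ± 1.85 FPKM and Hoxa10 at 7.93 ± 0.370 FPKM. In the T + E2 group Hoxd13 came second at 11.1 ± 1.87 FPKM followed by Hoxa10 at 8.09 ± 0.254 FPKM, and Hoxb9 had moved to the fifth place at 5.58 ± 1.42 FPKM. Neighbours in this order often could not be ordered. Among the 35 genes with at least 1 count, the ranges of 28 of 34 neighbouring pairs overlapped in the CON group and those of 29 of 34 in the T + E2 group. Hoxb13 stood clear of the next gene in both groups.

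The 10 highest genes by mean FPKM over all 6 mice also held Hoxa13, Hoxa9, Hoxa11, Hoxa5, Hoxa7 and Hoxd9. Hoxa13, which acts at the posterior end of the tract, measured 4.30, 5.72 and 4.50 FPKM in CON mice and 4.84, 5.28 and 5.31 FPKM in T + E2 mice. Hoxa9 measured 4.92, 4.59 and 5.16 FPKM against 5.11, 4.46 and 5.36 FPKM. In these genes the groups overlapped. Hoxa5, an anterior gene known from lung and gut mesenchyme, measured 2.05, 2.01 and 2.99 FPKM in CON mice and 2.29, 1.64 and 2.45 FPKM in T + E2 mice. Hoxa7 measured 2.33, 1.77 and 2.11 FPKM against 2.13, 2.18 and 2.49 FPKM. These also overlapped. Hoxd13, the posterior gene of limb and genital bud, measured 8.53, 12.2 and 9.95 FPKM in CON mice and 9.90, 10.2 and 13.3 FPKM in T + E2 mice. Hoxa10 measured 7.74, 7.70 and 8.36 FPKM against 7.95, 8.39 and 7.94 FPKM. Neither separated the groups. Hoxd9 did separate them, with 2.21, 3.34 and 2.40 FPKM in CON mice and 0.928, 2.09 and 1.99 FPKM in T + E2 mice, but did not pass the test described below (log2 fold change -0.63, SE 0.31, adjusted p = 0.198 in edgeR). At the other end, Hoxb1, Hoxc12, Hoxc13 and Hoxd1 had 0 counts in all 6 mice, which at this depth allows up to 3 counts a mouse. Thus each of the clusters A, B and D was read up to its group 13 gene, while the Hoxc cluster had no count beyond Hoxc11.

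**Figure D1:**
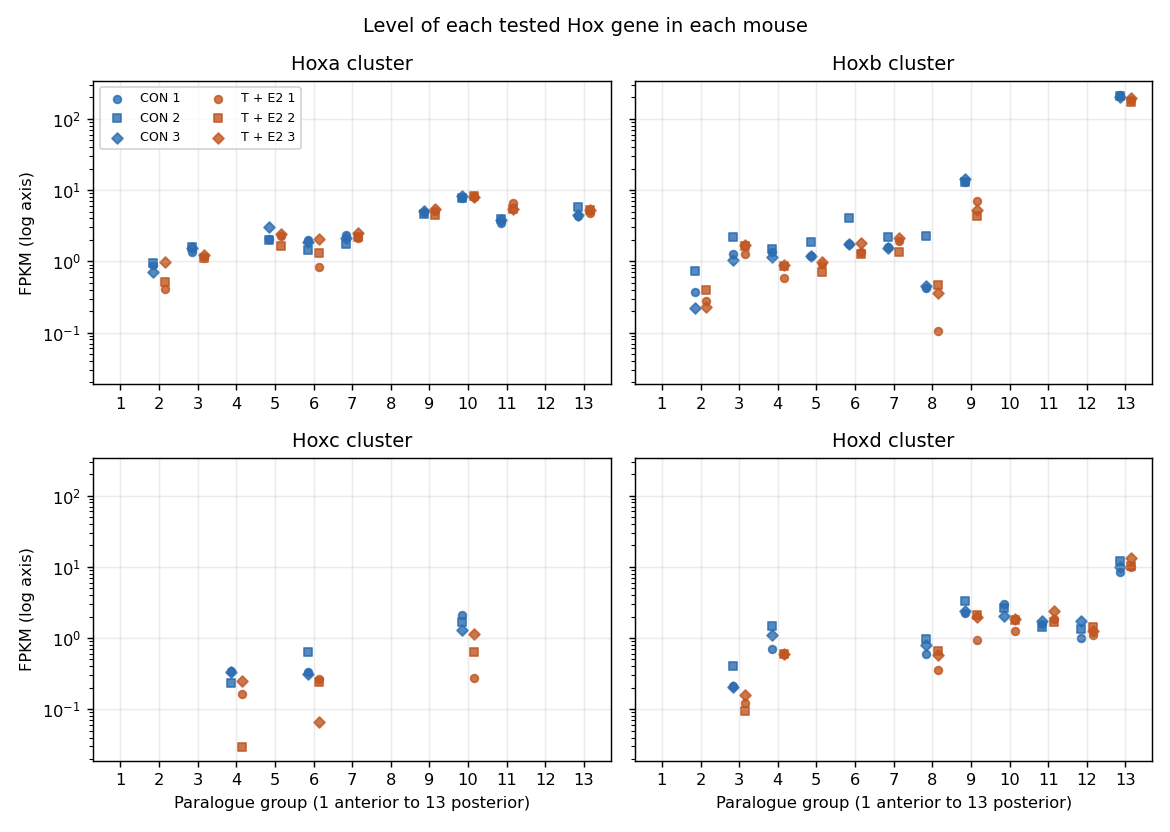
FPKM (log axis) of the 29 Hox genes with enough reads for a test against its paralogue group, 1 panel per cluster, with CON mice and T + E2 mice in different colours and 1 point per mouse. Hoxb13, at 175.1 to 218 FPKM, stands above the other genes, and the Hoxc panel holds 3 genes, none beyond group 10.

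Of the 39 genes, 29 had enough reads for the test of edgeR, which needs about 10 counts in at least 3 mice. Hoxa4, Hoxc5, Hoxc8, Hoxc9 and Hoxc11, with 0 to 16 counts a mouse, were among the 10 not tested, as were the 4 genes without counts. Hoxb8, Hoxc4, Hoxc6 and Hoxc10 reached the level in all CON mice and in fewer T + E2 mice, and no Hox gene did the reverse. Called genes had an adjusted p under 0.05 over all 15580 genes tested, of which 19.6% were called, 10.4% as higher and 9.25% as lower in the T + E2 group. Among the Hox genes 2 of 29 (6.90%) were called, Hoxa11 as higher and Hoxb9 as lower. A DEG also had to change by more than 1 on the log2 scale, as 7.64% of all tested genes did, 4.27% as higher and 3.38% as lower, and Hoxb9 was the single Hox DEG. The median log2 fold change was -0.37 over the 29 Hox genes and -0.002 over all genes tested. Of the 29 values 20 lay below 0, as did 50.2% of those of all tested genes. The 20 include Hoxb8, Hoxc4, Hoxc6 and Hoxc10, which passed the filter through the CON mice. The CPM of the groups did not overlap for 12 of the 29 genes (41.38%), a share near the 40.7% of all tested genes. In 11 of the 29 the T + E2 mice were the lower ones, the order found in 20.7% of all tested genes, and in Hoxa11 they were the higher ones. The 11 include Hoxc6 and Hoxc10, which passed the filter through the CON mice, and this favoured the lower order.

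**Figure D2:**
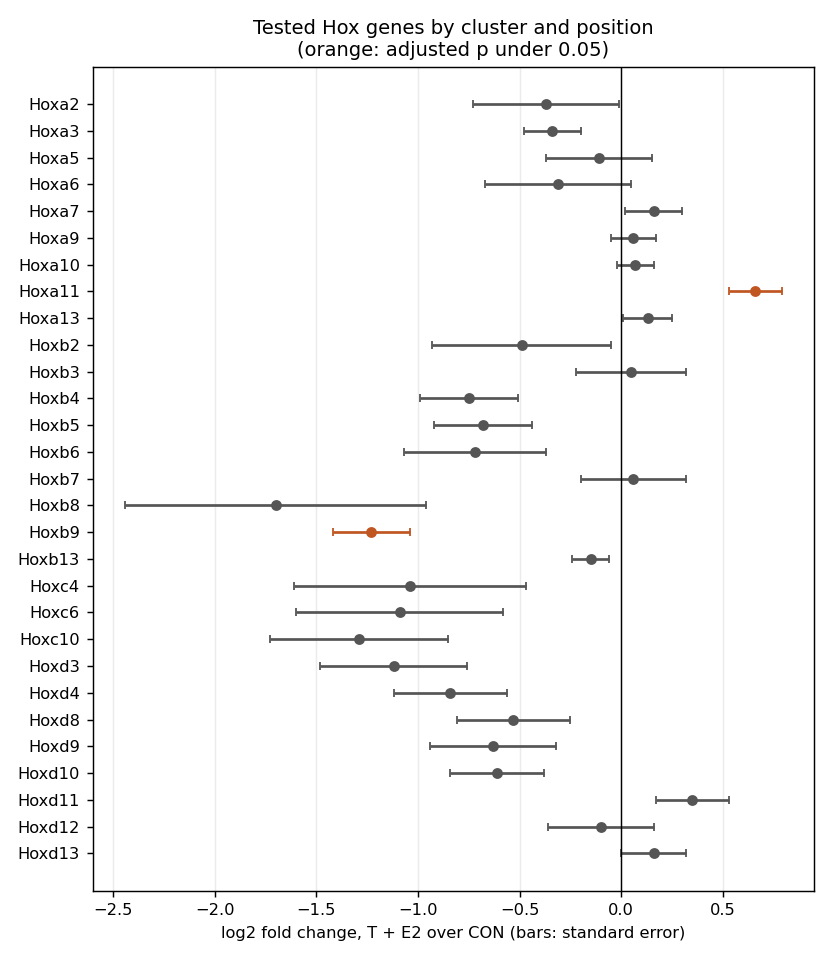
Log2 fold change of T + E2 over CON for the 29 tested Hox genes by cluster and position, with standard errors as bars and the 2 called genes in orange. Hoxb9 lies at -1.23 and Hoxa11 at 0.66, and 20 of the 29 points lie below 0, as did 50.2% of all tested genes.

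Hoxb9, a gene of the thoracic and lumbar region that is also active in the urogenital tract, fell. It is ENSMUSG00000020875, on the plus strand at chr11:96271457-96276595. It measured 36.6, 36.7 and 41.1 CPM in CON mice 1 to 3 and 21.4, 12.6 and 14.9 CPM in T + E2 mice 1 to 3. The highest T + E2 mouse thus lay well below the lowest CON mouse. The log2 fold change was -1.23 (SE 0.19), a level 2.34-fold lower, with an adjusted p of 0.00317 in edgeR's quasi-likelihood test. Without the second mouse of each group it was -1.10 (SE 0.20, adjusted p = 0.0256 in the same edgeR test). The call held in 16 of 16 alternatives, with log2 fold changes from -1.47 to -1.07. Its neighbour Hoxb13, 74.0 kb upstream in the cluster and the most abundant member, measured 472.0, 457.2 and 454.3 CPM in CON mice and 425.2, 389.3 and 432.6 CPM in T + E2 mice. Although each T + E2 mouse lay below each CON mouse, as in 20.7% of all genes tested, the log2 fold change of Hoxb13 was -0.15 (SE 0.09) and edgeR's adjusted p was 0.276.

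Between these neighbours lies Gm53, a long non-coding RNA gene at chr11:96251105-96264868, which ends 6.6 kb before Hoxb9 and starts 53.7 kb after Hoxb13. Gm53 also fell, from 44.2, 37.1 and 49.5 CPM in CON mice to 27.3, 24.4 and 22.2 CPM in T + E2 mice, with no overlap of the groups. Its log2 fold change was -0.82 (SE 0.13, adjusted p = 0.00413 in edgeR), and it was called in 16 of 16 alternatives. No other tested gene of the Hoxb cluster was called.

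The paralogue of Hoxb9 in the Hoxa cluster, Hoxa9, did not pass the test, with 35.4, 32.8 and 38.0 CPM against 39.2, 32.9 and 38.8 CPM and a log2 fold change of 0.06 (SE 0.11, adjusted p = 0.717 in edgeR). Whether short reads can tell such copies apart depends on their sequence, which is most alike in the homeobox, the 180 bases that encode the DNA-binding homeodomain. Over all 42 pairs of genes with 1 paralogue number, homeobox identity ranged from 67.2 to 93.9%, and the longest run without a difference was 47 bases. In a BLAST search of whole transcripts for matches of 100 bases or longer with 90% or more of them equal, neither Hoxb9 nor Hoxb13 resembled the transcript of another gene.

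Hoxa11, which patterns the limb and the uterus and vas deferens, rose. It is ENSMUSG00000038210, on the minus strand at chr6:52242106-52245810. It measured 15.1, 17.1 and 16.7 CPM in CON mice 1 to 3 and 30.1, 24.1 and 23.2 CPM in T + E2 mice 1 to 3. The groups did not overlap. The log2 fold change was 0.66 (SE 0.13), a level 1.58-fold higher, with an adjusted p of 0.0104 in edgeR. Without the second mouse of each group, which leaves 2 mice a group, the value was 0.74 (SE 0.17) and the call was lost (adjusted p = 0.0546 in edgeR). Hoxa11 stayed called without the second CON mouse alone (0.69, adjusted p = 0.0271 in edgeR). The same held for Hoxa11 without the second T + E2 mouse alone (0.71, adjusted p = 0.0246 in edgeR). Its paralogue Hoxd11 measured 6.95, 6.18 and 7.80 CPM in CON mice and 8.58, 7.49 and 10.5 CPM in T + E2 mice, with a log2 fold change of 0.35 (SE 0.18, adjusted p = 0.221 in edgeR). The homeoboxes of this pair, at chr6:52243402-52243581 (minus strand) and chr2:74683917-74684096 (plus strand), were 80.6% identical. Both lie in exon 2 of 2, and they are shown with the bases at which the pair differ in capitals.

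Hoxa11: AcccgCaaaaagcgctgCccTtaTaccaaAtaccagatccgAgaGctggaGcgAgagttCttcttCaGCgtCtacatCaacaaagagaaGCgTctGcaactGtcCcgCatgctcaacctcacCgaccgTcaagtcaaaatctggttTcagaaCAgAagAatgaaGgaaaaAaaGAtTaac

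Hoxd11: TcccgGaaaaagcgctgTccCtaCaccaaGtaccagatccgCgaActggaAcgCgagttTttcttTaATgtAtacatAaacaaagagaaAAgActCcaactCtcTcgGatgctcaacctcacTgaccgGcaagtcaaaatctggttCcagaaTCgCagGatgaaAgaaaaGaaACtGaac

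Hoxa11 shares its first exon with another transcript. Hoxa11os, a non-coding RNA gene on the opposite strand at chr6:52244393-52249799, covers 800 of the 2287 exon bases of Hoxa11 (35.0%). Hoxa11os took many more reads than Hoxa11 and was called in the other direction. It measured 226.0, 295.1 and 326.9 CPM in CON mice and 175.3, 179 and 227.0 CPM in T + E2 mice, so that the highest T + E2 mouse reached the lowest CON mouse. The log2 fold change was -0.54 (SE 0.16, adjusted p = 0.0484 in edgeR), and the call held in 9 of 16 alternatives. Without the second mouse of each group it was lost, at -0.46 (adjusted p = 0.255 in edgeR). There were 14.96, 17.3 and 19.6 reads of Hoxa11os for each read of Hoxa11 in CON mice and 5.83, 7.42 and 9.77 in T + E2 mice. The balance of the pair thus differed between the groups without overlap, whichever way the reads were scaled. How reads in the shared exon were assigned, and whether counting used the strand, is not given in the sources used here. The part of this assignment in the rise of Hoxa11 was not tested. With the counts of both genes summed, the log2 fold change was -0.45 (SE 0.15, adjusted p = 0.0735 in edgeR), opposite in sign to that of Hoxa11. Hoxa11os supplied most of the summed reads, so the sum follows that gene and does not show how Hoxa11 changed.

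**Figure D3:**
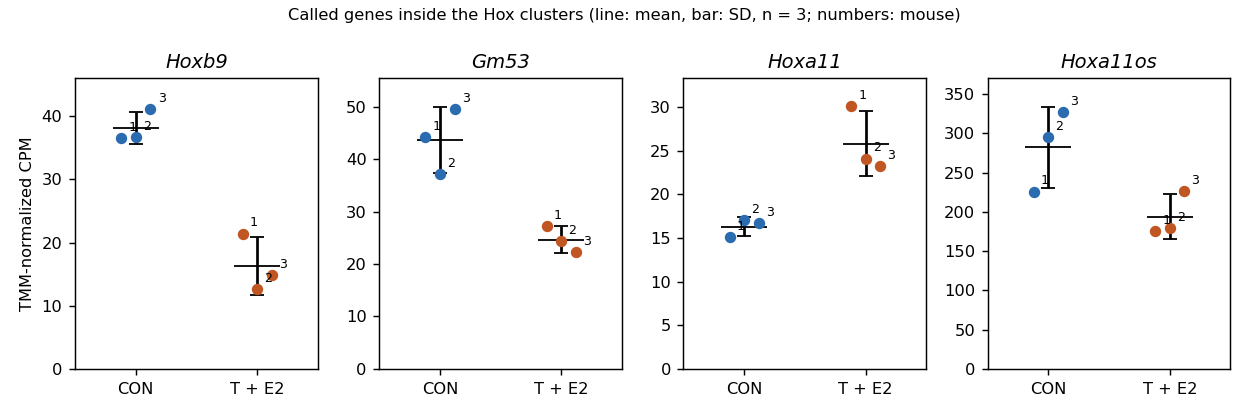
TMM-normalized CPM of the called genes inside the Hox clusters (Hoxa11, Hoxb9, Hoxa11os and Gm53) in each CON and T + E2 mouse, with the mean as a line, the SD as a bar (n = 3) and the mouse number beside each point. Hoxa11 reads 15.1 to 17.1 CPM in CON mice and 23.2 to 30.1 CPM in T + E2 mice, while the other 3 genes have lower means in T + E2 mice.

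The 250 bases before the start of Hoxa11, at chr6:52245811-52246060 on the minus strand (RefSeq, GRCm38.p6), are shown because this gene was called as higher in the hormone-treated group and because RefSeq promoter windows were at hand for 22 of the 39 genes, Hoxa11 included. Capitals mark half-sites of the steroid receptor elements, searched on both strands, AGAACA, which several steroid receptors recognise, and GGTCA of the oestrogen receptors.

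Hoxa11 promoter: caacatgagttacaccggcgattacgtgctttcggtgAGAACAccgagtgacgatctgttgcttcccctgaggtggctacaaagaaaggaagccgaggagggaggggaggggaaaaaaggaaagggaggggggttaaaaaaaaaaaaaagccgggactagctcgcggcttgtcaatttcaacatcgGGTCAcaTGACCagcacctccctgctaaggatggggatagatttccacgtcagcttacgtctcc

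The window held AGAACA at 1 place and GGTCA at 2 places, the latter facing each other 2 bases apart. The full elements, in which each half-site is followed 3 bases on by its reverse complement, were absent from it and from the windows of the other matched Hox genes, and occurred in 0.01% and 0.06% of 32526 promoter windows. The half-sites were common, AGAACA in 16.03% and GGTCA in 35.33% of all windows. A match here is a description of letters and not a binding site.

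Of the genes called in neither direction, several had large fold changes with large errors. The most extreme was Hoxb8, at 1.85, 9.86 and 2.01 CPM in CON mice and 0.484, 2.07 and 1.60 CPM in T + E2 mice. The second CON mouse lay far above the other 5 mice. The log2 fold change was -1.70 (SE 0.74, adjusted p = 0.148 in edgeR) with that mouse and -0.47 (SE 0.53) without it. Hoxc10, which is active in hindlimb and lumbar tissue, measured 3.97, 3.15 and 2.45 CPM against 0.553, 1.22 and 2.14 CPM. Each T + E2 mouse lay below each CON mouse, and the log2 fold change was -1.29 (SE 0.44, adjusted p = 0.0763 in edgeR). Hoxc10 had passed the filter through the CON mice, which favoured this order. It was called in 1 of 16 alternatives. That was the fit without the third T + E2 mouse, the highest of its group, at -1.83 (adjusted p = 0.0314 in edgeR).

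Among the anterior genes Hoxb4, known from blood stem cells, measured 3.44, 3.75 and 3.02 CPM in CON mice and 1.59, 2.19 and 2.27 CPM in T + E2 mice, again without overlap. Its log2 fold change was -0.75 (SE 0.24, adjusted p = 0.0614 in edgeR), and limma on log2(FPKM + 0.1) gave an adjusted p of 0.0459. Hoxd3 and its neighbour Hoxd4 followed the same order of groups. Hoxd3 measured 2.19, 4.14 and 2.14 CPM against 1.31, 0.974 and 1.60 CPM (log2 fold change -1.12, SE 0.36, adjusted p = 0.0615 in edgeR), and without the second CON mouse the log2 fold change was -0.74. Hoxd4 measured 3.64, 7.69 and 5.78 CPM against 3.25, 3.17 and 3.14 CPM (log2 fold change -0.84, SE 0.28, adjusted p = 0.0730 in edgeR), and without that mouse it was -0.57. The T + E2 values of Hoxd4 were nearly equal, and those of the CON mice spread widely. The pair overlap each other by 388 exon bases and share Gm28230, which covers 53.1% of the exon bases of Hoxd3 and 39.1% of those of Hoxd4. With the counts of overlapping genes added the sums are nearly the same reads, and this 1 sum was called, at -0.97. Among the remaining genes of groups 10 to 13, Hoxd10 measured 5.36, 4.60 and 3.71 CPM in CON mice and 2.42, 3.23 and 3.27 CPM in T + E2 mice, without overlap, but did not pass the test (log2 fold change -0.61, SE 0.23, adjusted p = 0.103 in edgeR). The log2 fold changes of Hoxd13 (0.16), Hoxa13 (0.13), Hoxa10 (0.07) and Hoxd12 (-0.10) were smaller, and their groups overlapped. The 13 tested genes not yet named with a fold change, all from groups 1 to 8, had values from -1.09 (Hoxc6) to 0.16 (Hoxa7) and adjusted p of 0.0857 or more in edgeR. Hoxb6, with 5.63, 13.01 and 5.72 CPM in CON mice and 4.70, 4.20 and 5.87 CPM in T + E2 mice, again had its highest value in the second CON mouse, with a log2 fold change of -0.72 with that mouse and -0.21 without it.

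By position, the counts differed as follows. In groups 1 to 8, 17 of 23 genes were tested, 0 were called, 5 (29.4%) had an unadjusted p under 0.05 in edgeR, against 34.5% of all tested genes, and the median log2 fold change was -0.53. Of the 6 tested genes in groups 9 to 10, Hoxb9 was called (16.67%) and the median was -0.62. Of these 6 genes, 3 (50%) had an unadjusted p under 0.05 in edgeR. Of the 6 in groups 11 to 13, Hoxa11 was called (16.67%) and the median was 0.14. Here 1 gene (16.7%) had an unadjusted p under 0.05 in edgeR. Over all tested genes 19.6% were called. By cluster, the medians were 0.06 for Hoxa (9 tested), -0.68 for Hoxb (9 tested), -1.09 for Hoxc (3 tested) and -0.57 for Hoxd (8 tested). All 3 Hoxc genes passed the filter through the CON mice, in which they were high, which favoured a low median. So did Hoxb8, Hoxc4 and Hoxc6 in groups 1 to 8, Hoxc10 in groups 9 to 10 and Hoxb8 in the Hoxb cluster. The medians of these parts were thus also favoured to be low. Without the filter on low counts the median of 35 genes was -0.54, and over the 21 genes at an FPKM of 1 or more it was -0.12. The second CON mouse was the highest of all 6 mice for 14 of the 29 tested genes and for 12 of the 17 in groups 1 to 8. How often this mouse was the highest over all tested genes was not counted. Leaving it out changed the median of the 29 genes to -0.29, that of groups 1 to 8 to -0.38 and that of Hoxb to -0.21. Without the second mouse of each group these medians were -0.21, -0.32 and -0.18.

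**Figure D4:**
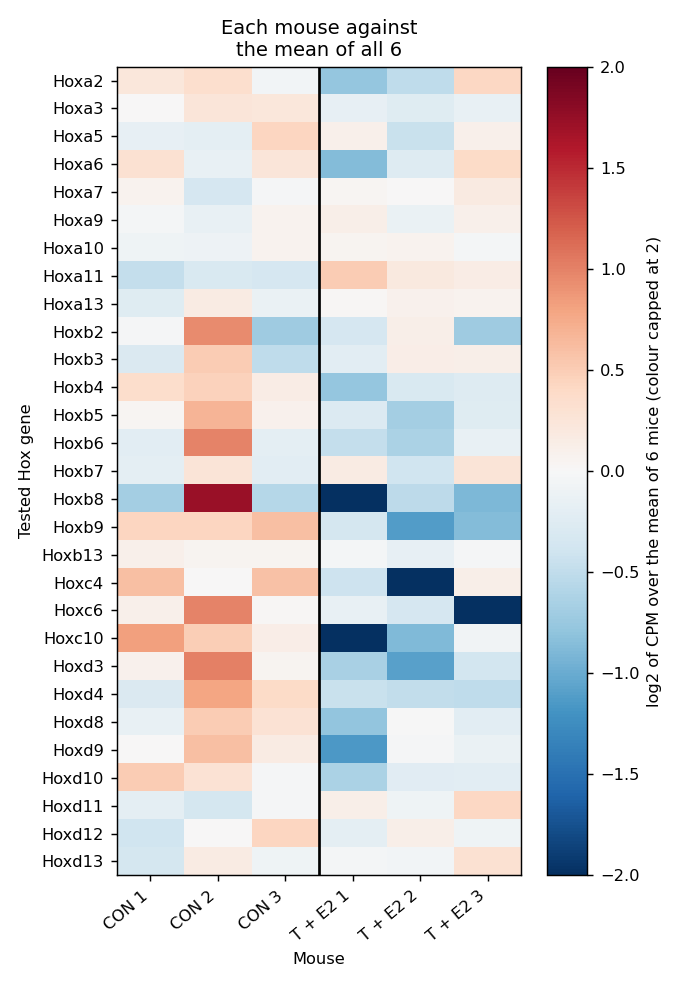
Colour map of log2 CPM of each tested Hox gene (rows) in each mouse (columns) relative to the mean of all 6 mice, with colours capped at 2. Red cells gather in the column of the second CON mouse, which was highest for 14 of the 29 genes, with Hoxb8 at 9.86 CPM as its darkest cell. The share over all tested genes was not counted.

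Because Hoxb13 outweighed the rest, the make-up of Hox expression was also described without it, in percent of the summed FPKM of the other genes. Groups 11 to 13 held 26.7, 29.3 and 29.4% in CON mice and 39.1, 39.6 and 39.5% in T + E2 mice. Groups 9 to 10 held 46.4, 38.98 and 44.6% in CON mice and 36.8, 35.5 and 33.3% in T + E2 mice. Neither share overlapped between the groups of mice. The shares restate in part the called genes, since a lower Hoxb9 raises the share of all others. In FPKM, groups 11 to 13 without Hoxb13 summed to 19.2, 24.99 and 22.1 in CON mice and to 24.2, 24.3 and 27.9 in T + E2 mice, which overlap, and groups 9 to 10 to 33.3, 33.2 and 33.5 against 22.8, 21.8 and 23.5. With Hoxb9 and Hoxa11 also left out, groups 11 to 13 held 28.4, 30.8 and 32.1% in CON mice and 36.6, 36.5 and 37.6% in T + E2 mice, and the shares of groups 9 to 10 overlapped. Groups 1 to 8 overlapped, at 26.9, 31.7 and 25.95% against 24.1, 24.9 and 27.2%. By cluster, Hoxa went from 39.2% ± 3.36 to 49.2% ± 1.90 (SD, n = 3), Hoxb from 30.2% ± 2.25 to 19.6% ± 2.02, Hoxc from 4.11% ± 0.803 to 2.06% ± 0.709, and Hoxd from 26.5% ± 1.495 to 29.1% ± 2.77. The sums behind these shares were 71.7, 85.2 and 75.2 FPKM in CON mice and 61.9, 61.3 and 70.6 FPKM in T + E2 mice. With Hoxb13 included, the 39 genes summed to 289 ± 9.07 FPKM in the CON group and 250.4 ± 16.7 FPKM in the T + E2 group (SD, n = 3). These shares are descriptions and were not tested.

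**Figure D5:**
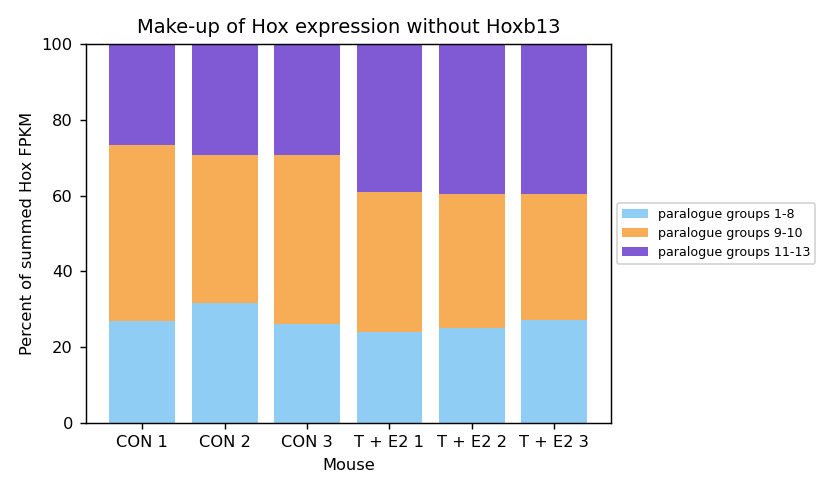
Stacked bars of the percent of summed Hox FPKM, Hoxb13 left out, held by paralogue groups 1 to 8, 9 to 10 and 11 to 13 in each mouse. Groups 11 to 13 take 26.7 to 29.4% in CON mice and 39.1 to 39.6% in T + E2 mice.

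In whole tissue a lower level can mean fewer cells of a type or less RNA per cell, and these cannot be told apart here. Several cell type markers moved between the groups, in which 19.6% of all tested genes were called. Of 6 smooth muscle markers 2 fell, Acta2 (log2 fold change -0.50) and Des (-0.38), and the 6 summed to 4085 to 5074 CPM in CON mice and 3580 to 3920 CPM in T + E2 mice. None of 6 fibroblast markers was called, and their sums were 1602 to 1730 CPM and 1675 to 2030 CPM. Of 4 luminal markers, Epcam (1.18) and Cdh1 (0.34) rose and Krt18 (-0.54) fell, with sums of 1943 to 2184 CPM and 2328 to 2395 CPM. Of 4 basal markers Trp63 rose (0.57), with sums of 154.8 to 257.1 CPM and 245.1 to 312.9 CPM. Of 4 urothelial markers all 3 that were tested rose, Upk2 (2.20), Upk1a (1.80) and Upk1b (0.66), with sums of 421.8 to 642.1 CPM and 1374 to 1700 CPM, and Upk3a, the untested one, was at 0 in the CON mice. Of 6 prostate secretory genes listed as enriched by lobe, Pbsn (-3.29), Tgm4 (-2.91) and 9530053A07Rik (-2.87) fell and Msmb (1.10) and Spink1 (0.72) rose. The lobes sampled are not given in the sources used here. The part of these cell types and lobes in the Hox results was not tested.

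The Hox genes were then set beside genes that control them. Polycomb complexes keep Hox genes silent, and trithorax proteins and H3K27 demethylases keep them open. Of 16 Polycomb genes 2 (12.5%) were called, against 19.6% of all tested genes. The ubiquitin ligase gene Rnf2 rose (log2 fold change 0.34, SE 0.10, adjusted p = 0.0487 in edgeR) and Pcgf2, also known as Mel18, fell (-0.70, SE 0.18, adjusted p = 0.0304). Of 8 trithorax and demethylase genes 2 (25%) were called. Ash2l rose (0.54, SE 0.12, adjusted p = 0.0156 in edgeR) and the demethylase gene Kdm6b fell (-0.47, SE 0.12, adjusted p = 0.0311). Each list thus had 1 gene in each direction, and the medians were -0.02 and -0.17. Without the second mouse of each group, which leaves 2 mice a group, none of the 4 was called, at 0.23 for Rnf2, -0.49 for Pcgf2, 0.61 for Ash2l and -0.38 for Kdm6b. Rnf2 was called in 4 of 16 alternatives. The Cdx genes, which switch on the clusters in the embryo, had 0 counts in all 6 mice for all 3 members.

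Retinoic acid induces Hox genes in order along the cluster. Of 12 genes for its synthesis, breakdown and receptors, 10 were tested and 3 (30.0%) were called, against 19.6% of all tested genes. Aldh1a2, the synthesis enzyme of embryonic mesoderm, rose from 10.99, 7.62 and 9.05 CPM in CON mice to 216.0, 210.7 and 166.4 CPM in T + E2 mice. Its log2 fold change of 4.42 (SE 0.18, adjusted p = 7.68e-06 in edgeR) was far larger than that of any tested Hox gene. Aldh1a1 rose by 0.60 (SE 0.12, adjusted p = 0.00984 in edgeR), and the receptor gene Rxrg fell (log2 fold change -1.33, SE 0.19, adjusted p = 0.00275 in edgeR).

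Among 23 other transcription factor genes of the urogenital tract 19 were tested, of which 1 rose and 4 fell (26.32%, against 19.6% of all tested genes). The median was -0.22. Gata2, a zinc finger factor of the urogenital tract, fell from 398.7, 340.4 and 406.3 CPM in CON mice to 174.5, 119.8 and 130.1 CPM in T + E2 mice (log2 fold change -1.43, SE 0.16, adjusted p = 0.000700 in edgeR). The T-box genes Tbx2 (-1.08) and Tbx3 (-0.79) and the mesenchymal gene Osr1 (-0.94) also fell. Among 5 sex steroid receptor genes 3 (60%) were called, Esr1 (0.82) and Pgr (0.95) as higher and Esr2 (-1.20) as lower. With 2 mice a group, after the second of each was left out, Osr1 (-0.69) and Pgr (0.66) were not called.

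Did the clusters move as blocks? The table lists 22 other genes between the first and the last Hox gene of a cluster, mostly non-coding RNAs. Of these 7 were tested, 0 rose and 2 fell (28.57%, against 19.6% of all tested genes), Hoxa11os and Gm53, both described above. Hotair, the non-coding RNA of the Hoxc cluster, and Hotairm1 of the Hoxa cluster were too low to test. Within 500 kb outside the clusters lay 88 genes, of which 41 were tested, 6 rose and 4 fell (24.39%, against 19.6% of all genes). Beside the Hoxb cluster the glycosyltransferase gene B4galnt2 rose from 20, 18.9 and 16.0 CPM in CON mice to 115.0, 134.5 and 142.5 CPM in T + E2 mice (log2 fold change 2.83, SE 0.13, adjusted p = 1.37e-05 in edgeR). Ttll6 (1.86) and Nfe2l1 (0.60) beside that cluster also rose, and Gm11535 (-1.30) fell. Beside the Hoxa cluster Tax1bp1 rose (0.60), and beside the Hoxc cluster Pde1b fell (-0.90), a call that held in 5 of the 15 alternatives that tested it. Genes called in opposite directions thus stood within 500 kb of the same cluster.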

How the data were processed

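Total RNA of 6 mouse prostates was sequenced as paired-end TruSeq libraries, 3 per group. The authors deposited 1 table with whole-number read counts per gene, not normalized, and FPKM values that they computed from them. The submitters' processing notes name TopHat, Bowtie2 and HTSeq without versions. The genome build, the annotation and the handling of strand are not given in the sources used here. All 39 Hox spans equal those of GENCODE M21 on GRCm38. Groups and replicate numbers came from the sample labels, which number the tissues of each group. The paper states that 3 mice per group were used for sequencing. P-values set the difference between the groups against the spread between these mice.

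Deposited counts were tested with edgeR 4.0.16 in R 4.3.3 (filterByExpr with a minimum count of 10 and a total of 15, TMM, quasi-likelihood test, two-sided, Benjamini-Hochberg over 15580 genes). The standard error is the log2 fold change over the root of F. The biological coefficient of variation was 18%, and libraries held 14816146 to 16555549 counts. In data simulated for this comparison (15380 tested genes), 55 of 100 genes changed by 1 and 94 of 100 changed by 2 on the log2 scale were called, with 15 false calls. Alternatives were DESeq2 1.42.0, RLE or total-count scaling, no filter, a filter at an FPKM of 1 in 3 samples, limma 3.58.1 on log2(FPKM + 0.1) and log2(FPKM + 1), a replicate block, counts of exon-overlapping genes added, and each mouse left out. Leaving out the second mouse of both groups was chosen after seeing the data. Transcripts were compared with BLAST+ 2.17.0+. Homeoboxes were found by translation of GENCODE M21 transcripts.

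Hox genes that were called or among the 10 highest by FPKM are given in every mouse, with others for context chosen after their values were seen. Of the companion lists, called genes are named, up to 6 per list, and marker lists by counts and sums. Some genes are not reported here. The members and lists were chosen with earlier results of these data known.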

Additional observations from a re-analysis of the deposited data

How the results depend on the processing

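Hoxb9 was called in each of the 16 alternatives and Hoxa11 in 14. The number of Hox genes called as lower, 1 as reported, was 2 with DESeq2 (Hoxb8 added, also the second of 2 lower DEGs). It was 2 with limma on log2(FPKM + 0.1) and on log2(FPKM + 1) (Hoxb4 added both times). With the counts of overlapping genes added it was 3 (Hoxd3 and Hoxd4 added, which then share nearly all counts). In that setting 0 were higher, since Hoxa11 was summed with Hoxa11os, which supplied most reads, and the sum lay at -0.45. When 1 mouse was left out, 1 to 2 Hox genes were lower, by both call rules, with Hoxd4 added without the first CON mouse (-1.08) and Hoxc10 without the third T + E2 mouse. The higher count stayed at 1 when 1 mouse was left out and was 0 without the second mouse of both groups. There were 28 called companion genes, 18 to 27 when 1 mouse was left out (18 without the second CON mouse) and 16 without both second mice. Log2 fold changes near 0 changed sign when mice were left out, with ranges of -0.14 to 0.42 for Hoxb3, -0.06 to 0.41 for Hoxb7, -0.23 to 0.12 for Hoxa5 and -0.28 to 0.13 for Hoxd12. Hoxb2, at -0.49 with all mice, ranged from -0.80 to 0.06 and lay above 0 only without the second CON mouse. Shares of the sum over 39 genes, Hoxb13 included, moved when CPM replaced FPKM, which removes the division by gene length. In the CON and T + E2 groups, cluster A went from 10.45% and 12.68% in FPKM to 21.16% and 25.47% in CPM. Cluster B went from 81.36% and 79.26% to 70.23% and 66.27%. Groups 1 to 8 went from 7.564% and 6.553% to 10.59% and 8.964%. Groups 9 to 10 went from 11.55% and 9.074% to 18.42% and 16.92%. Groups 11 to 13 went from 80.89% and 84.37% to 70.99% and 74.12%. Replicate numbers did not pair the mice (correlations of deviations of -0.052, 0.028 and 0.046), and a replicate block kept the 2 Hox calls (Hoxb9 -1.26, adjusted p = 0.00913; Hoxa11 0.65, adjusted p = 0.0370, both edgeR) with 21 companion genes called. At this depth genes near the count minimum can show only large changes.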
